A study of Homo sapiens with 9 samples.

Results

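The SLC25 family of mitochondrial carriers was followed in HepG2 cells treated with eliglustat. All protein-coding genes whose symbol is SLC25A plus a number were taken, with 1 exception set in the selection. This gave 47 genes among the 62703 gene identifiers counted, and the 40 with a mean of 10 or more counts over the 9 libraries were analysed. HepG2 is an established human hepatocellular carcinoma line, and eliglustat is an inhibitor of glucosylceramide synthase, the enzyme that makes the base of most glycosphingolipids. There were 3 libraries of untreated HepG2 cells, 3 of HepG2 cells given 20 µM eliglustat and 3 of HepG2 cells given 30 µM eliglustat, with treatment for 72 h. The labels state no time for the untreated cells and no genetic change in any group, and all groups share the same line. The series text mentions a further incubation after treatment and a lower dose. The lower dose is not analysed here, and the labels do not say whether the further incubation applies to these libraries.

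SLC25 proteins carry metabolites across the inner mitochondrial membrane, which is otherwise closed to most charged molecules. Each is built from repeats of the same fold and made in the cytosol, and carriers of the inner membrane are inserted through the TIM22 complex. Most exchange a molecule inside for a molecule outside. In liver cells they join cytosolic and mitochondrial steps of ATP supply, citrate export for lipid synthesis, the urea cycle, the malate-aspartate shuttle, heme synthesis and the supply of cofactors to the matrix. SLC25A17 sits in the peroxisome and SLC25A46 in the outer mitochondrial membrane, and both belong to the family by sequence.

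Gene counts summed to between 21103757 and 26782810 a library. Another 40.6% to 43.98% of the records could not be given to a gene. Records with more than a unique alignment made up 12.4% to 12.8% in untreated libraries, 13.3% to 15.5% at 20 µM and 14.8% to 19.4% at 30 µM. Levels of a gene are CPM, its counts relative to the library total after scaling by TMM (trimmed mean of M-values), and errors are SD over n = 3 libraries. Changes are log2 ± SE from edgeR's quasi-likelihood test over all 9 libraries, with p-values adjusted by Benjamini and Hochberg over the 17623 genes tested, and the words rose and fell are kept for an adjusted p under 0.05. The labels do not state separate cultures for the libraries of a group, and p-values therefore reflect only how far these libraries scatter, possibly for technical reasons alone. In bulk RNA, fewer cells of a type and less RNA per cell cannot be told apart. Untreated library 1, library 3 at 20 µM and library 3 at 30 µM deviated from their group means together over all genes (pairwise r of 0.365, 0.398 and 0.406), and calls that ended or arose without these 3 are given below. All 8 hepatocyte markers were detected, of which 6 rose and 2 fell at 20 µM and 3 rose and 4 fell at 30 µM. Of 11 markers of fibroblasts, endothelium and leukocytes, COL1A2, DCN, PTPRC and MS4A1 had 0 counts in all 9 libraries. Only 4 of the 11 were tested, of which 1 rose and 1 fell at 20 µM and 2 rose and 2 fell at 30 µM. Of all genes, 34.2% and 60.8% were called at these doses. PDGFRB rose from 0.854 CPM in untreated cells to 3.01 CPM at 30 µM. The endothelial markers PECAM1 and VWF went opposite ways there. PECAM1 fell from 1.83 to 0.785 CPM, and VWF rose from 0.306 to 1.85 CPM. The summed level of the 11 was 5.57 to 7.21 CPM in untreated libraries, 6.24 to 7.93 CPM at 20 µM and 7.52 to 8.17 CPM at 30 µM, and its part in the results was not tested.

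The 7 carriers below the count limit were SLC25A2 (3 to 12 counts in a library), SLC25A21 (3 to 16), SLC25A27 (0 to 15), SLC25A31 (0 to 3), SLC25A41 (1 to 7), SLC25A52 (0 to 4) and SLC25A6, which had 0 counts in all 9 libraries. SLC25A6, the third of the widely expressed ADP/ATP carriers, lies in the region that X and Y share and is listed on both. Of the 47 genes listed on both chromosomes, 1 had any count. The value of SLC25A6 is therefore that of a gene listed at 0 and not a measurement of its level.

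At 20 µM against untreated cells, 10 of the 40 carriers rose and 4 fell, 35% in all, against 34.2% of all genes tested (17.2% higher and 16.9% lower). At 30 µM against untreated cells, 10 rose and 12 fell, 55%, against 60.8% of all genes (29.5% higher and 31.3% lower). At 30 µM against 20 µM, 9 rose and 14 fell, 57.5%, against 57% of all genes (28% higher and 28.9% lower). The share of carriers that passed the test thus lay near that of all genes in each comparison and is not a result about the family. At 20 µM the largest change was the 0.59 of SLC25A47, so that none reached 1 log2 unit (background 1.75%). Changes of at least 1 log2 unit were made by SLC25A48, SLC25A10 and SLC25A51 at 30 µM against untreated cells (3 of 40, background 16%) and by SLC25A48, SLC25A29 and SLC25A42 at 30 µM against 20 µM (3 of 40, background 11.6%). The groups did not overlap for 19, 23 and 26 carriers in the 3 comparisons, in that order, against 44.5%, 65% and 61.1% of all genes. The median log2 change of the carriers was 0.07, 0.01 and -0.09, beside 0.01, -0.04 and -0.03 over all genes tested. Both comparisons with untreated cells use the same 3 untreated libraries, so they are not independent of each other.

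**Figure D1:**
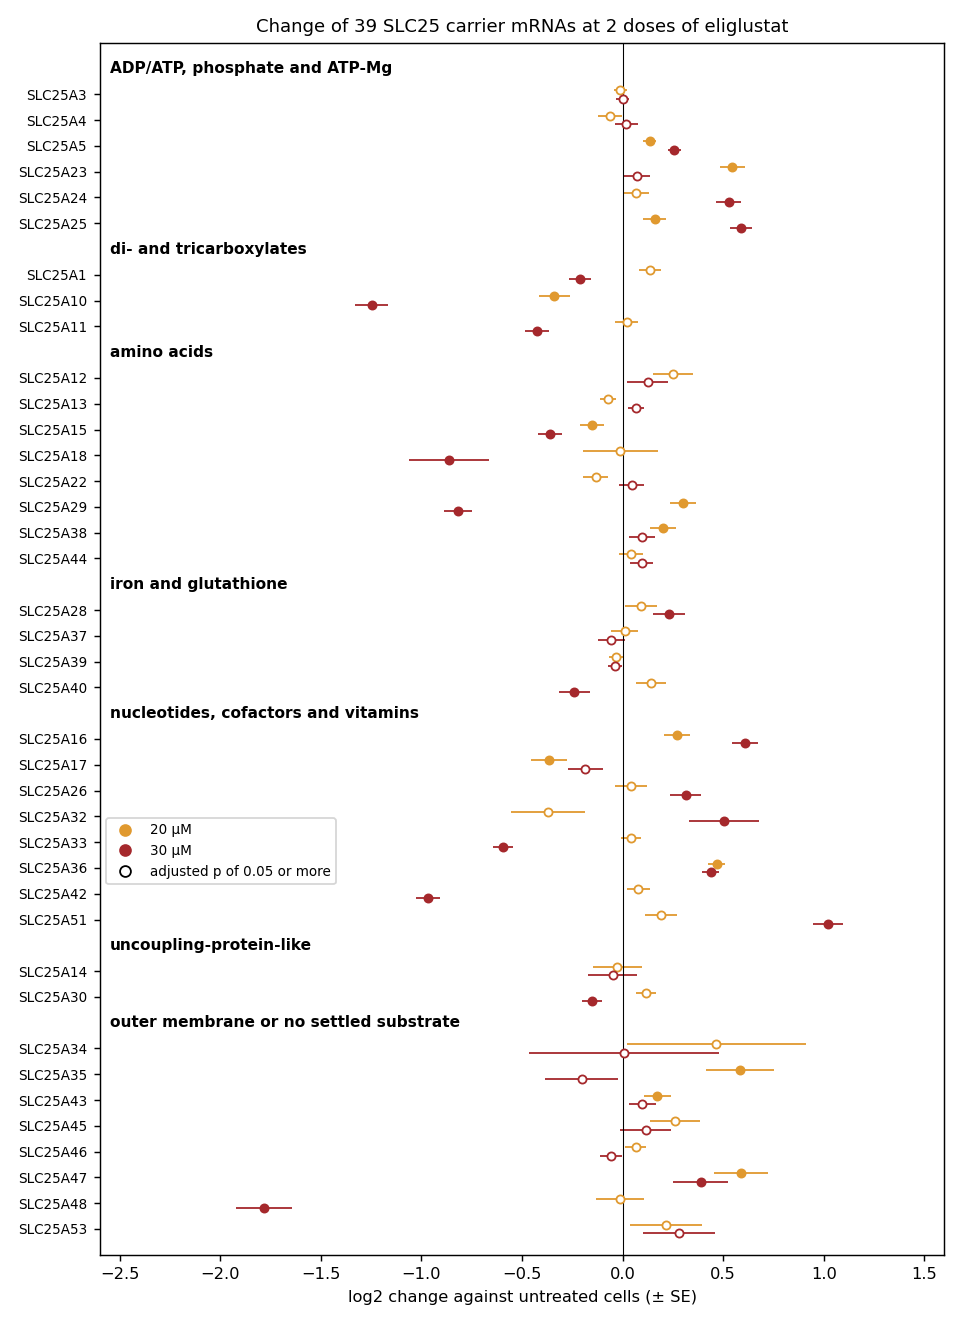
Log2 change (x axis, ± SE) of 39 of the 40 carriers at 20 µM and at 30 µM eliglustat against untreated cells, grouped by substrate; filled points had an adjusted p under 0.05 and open points did not. The widest changes are those of SLC25A48 at -1.78, SLC25A10 at -1.25 and SLC25A51 at 1.02, all at 30 µM.

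Scaling bears on the direction of small changes at 30 µM. With library size alone in place of TMM, the median change of all genes moved by -0.21 log2 units at 30 µM against untreated cells and by -0.19 against 20 µM, and the carriers then split into 5 higher and 21 lower against untreated cells and 4 higher and 25 lower against 20 µM. Of the 17623 genes tested, that scale called 3530 higher and 8022 lower against untreated cells, and 3029 higher and 7690 lower against 20 µM. With upper-quartile factors the split of the carriers was 14 higher and 3 lower at 20 µM against untreated cells and 6 higher and 17 lower at 30 µM against 20 µM. All genes then split into 3262 higher and 2786 lower, and 4108 higher and 6067 lower, in that order. Changes below are relative to the TMM scale, and on library size alone those at 30 µM would be lower by about the shift given. Against untreated cells at 30 µM, the calls of SLC25A5, SLC25A26, SLC25A28, SLC25A32 and SLC25A47 ended with library size alone and that of SLC25A28 with upper-quartile factors. Between the doses, those of SLC25A5, SLC25A13, SLC25A16, SLC25A22 and SLC25A26 ended with library size alone and those of SLC25A5, SLC25A13 and SLC25A22 also with upper-quartile factors. At 20 µM, SLC25A25 and SLC25A43 lost their calls with library size alone, and SLC25A15 lost its call with upper-quartile or median-ratio factors. Neither DESeq2 nor a fit without the filter on low counts called SLC25A15 and SLC25A43 at 20 µM.

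Between genes, levels can be compared only per length. For this, counts per base of the union of annotated exons were scaled to their sum over all genes as CPM is, and are called length-scaled CPM. SLC25A5 stood first of the 40 carriers (628.9 length-scaled CPM over the 9 libraries), then SLC25A1 (421), SLC25A3 (189), SLC25A39 (172) and SLC25A13 (107). With the length of the principal transcript the order of the first places was SLC25A3 (719 length-scaled CPM), SLC25A5 (531) and SLC25A1 (384), so which of these 3 is the most abundant depends on the length used. SLC25A39 and SLC25A13 stayed in places 4 and 5. On exon union SLC25A5 had 621 ± 19.1 length-scaled CPM in untreated cells and SLC25A1 had 457 ± 29.1, a gap wider than either spread, whereas SLC25A3 at 204 ± 9.5 and SLC25A39 at 189 ± 2.7 lay closer. The lowest of the 40 was SLC25A34 by both lengths, at 0.437 and 0.335 length-scaled CPM.

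**Figure D2:**
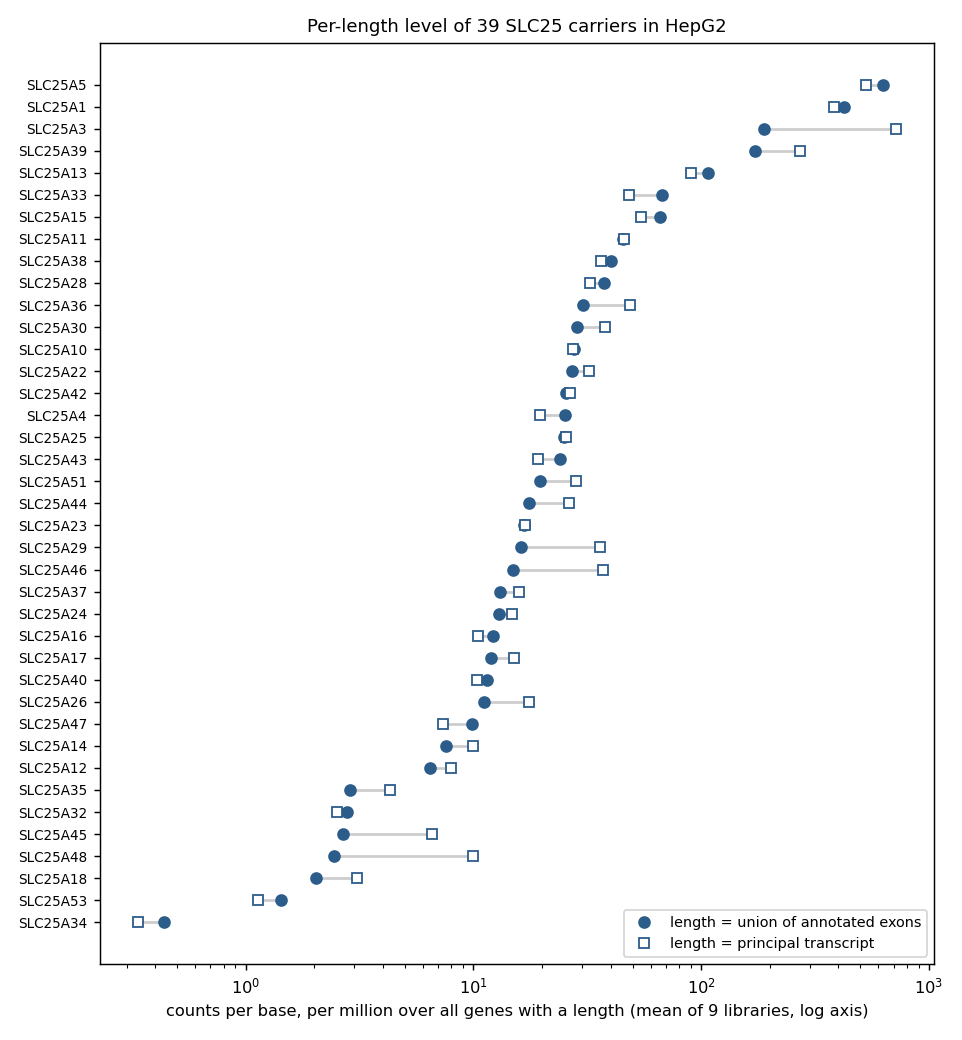
Mean per-length level of 39 carriers over the 9 libraries (x axis, log scale, length-scaled CPM, drawn as counts per base relative to all genes), with the union of annotated exons (filled circles) and the principal transcript (open squares) as length. The carriers span from 0.437 length-scaled CPM for SLC25A34 to 628.9 length-scaled CPM for SLC25A5 on exon union, and SLC25A3 moves from place 3 to place 1 with the length used.

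Among carriers of adenine nucleotides and phosphate, 3 of 6 rose at 20 µM and 3 of 6 at 30 µM against untreated cells, and the others did not pass the test. DESeq2 and limma voom gave the same counts, and of all genes 17.2% were higher at 20 µM and 29.5% at 30 µM. SLC25A3, the phosphate carrier that feeds ATP synthase (chr12:98593591-98606379, + strand, hg38, ENSG00000075415.15), had 504, 540.3 and 528 CPM in the untreated libraries, 506, 524 and 529 CPM at 20 µM and 521, 530.2 and 522 CPM at 30 µM. Its groups overlapped throughout, and its log2 change was -0.01 ± 0.03 at 20 µM and 0.00 ± 0.03 at 30 µM (adjusted p = 0.839 and 0.970, edgeR quasi-likelihood). With library size alone it was -0.21 at 30 µM. SLC25A5 (ANT2, an exchanger of matrix ATP for cytosolic ADP; chrX:119468400-119471319, + strand, ENSG00000005022.6) had 264, 269 and 272 CPM in untreated libraries, 289, 295 and 302 CPM at 20 µM and 319, 327 and 318 CPM at 30 µM. No library of a dose overlapped those of another, and SLC25A5 rose by 0.14 ± 0.03 at 20 µM and 0.26 ± 0.03 at 30 µM on the log2 scale (adjusted p = 0.00108 and 2.03e-08). With library size alone the change of SLC25A5 at 30 µM was 0.05 (adjusted p = 0.196) and against 20 µM it turned to -0.072. SLC25A5 has 9 annotated pseudogenes, which held 3.89 counts on average between them. The share of records with several alignments was higher in treated libraries, as given above, with overlap between the doses, and its part in the SLC25A5 values was not tested.

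SLC25A4 (ANT1, the form of heart and muscle) averaged 38.3 ± 1.16 CPM in untreated cells, 36.7 ± 2.69 CPM at 20 µM and 38.8 ± 0.884 CPM at 30 µM, and it passed none of the tests. Per exon base, SLC25A5 made up 95.8% ± 0.0669 of the ADP/ATP carriers in untreated cells, 96.3% ± 0.243 at 20 µM and 96.4% ± 0.0454 at 30 µM. That share leaves out SLC25A6, which was listed at 0.

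The ATP-Mg/phosphate carriers set the size of the matrix adenine nucleotide pool and respond to calcium. The 3 of them that passed the count limit followed separate courses over the doses. SLC25A23 had 21.5, 20.8 and 21.8 CPM in untreated libraries, 30.1, 32.3 and 31.1 CPM at 20 µM and 22.2, 21.9 and 23.2 CPM at 30 µM. SLC25A24 had 22.6, 24.1 and 24.5 CPM in untreated libraries, 25.5, 23.1 and 25.9 CPM at 20 µM and 35.2, 34.4 and 32.99 CPM at 30 µM. SLC25A25 had 30.99, 34.5 and 31.2 CPM in untreated libraries, 34.9, 37.2 and 35.8 CPM at 20 µM and 50.1, 47.4 and 47.8 CPM at 30 µM. No groups overlapped for SLC25A23, highest at 20 µM, or for SLC25A25, highest at 30 µM, and for SLC25A24 the 30 µM libraries were the highest while the others overlapped. SLC25A23 rose at 20 µM by 0.55 ± 0.06 (31.2 ± 1.10 CPM, against 21.3 ± 0.512 CPM untreated; adjusted p = 1.79e-08), while at 30 µM it was at 22.5 ± 0.696 CPM, a change of 0.07 from untreated cells (adjusted p = 0.352), and it fell by 0.47 from 20 µM. SLC25A24 was at 24.8 ± 1.53 CPM at 20 µM (log2 0.07) and 34.2 ± 1.13 CPM at 30 µM, against 23.7 ± 0.995 CPM untreated, a rise of 0.53 ± 0.06 at 30 µM (adjusted p = 9.77e-09) and of 0.46 ± 0.06 from 20 µM. SLC25A25 rose at both doses, by 0.16 ± 0.06 at 20 µM and 0.59 ± 0.06 at 30 µM (adjusted p = 0.0287 and 5.21e-11). Its call at 20 µM did not hold without untreated library 1 or 3 or without library 2 or 3 at 20 µM (adjusted p = 0.123, 0.119, 0.105 and 0.0587) or without the libraries that deviate together (0.158). Within the group, per exon base, SLC25A23 held 30.2% ± 1.51 in untreated cells, 36.7% ± 0.602 at 20 µM and 23.6% ± 0.879 at 30 µM, and SLC25A25 held 44.9% ± 1.56, 41.7% ± 0.566 and 50.1% ± 0.591 in the same order. Neither carrier's shares overlapped between any of the 3 groups, and an exact permutation test gave p = 0.1 for each pair of groups, the smallest that 3 libraries against 3 allow. SLC25A25 overlaps exons of NAIF1 and SLC25A25-AS1 on the opposite strand, which changed by -0.54 and 0.35 at 30 µM.

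All 3 carriers of di- and tricarboxylates analysed fell at 30 µM, with a median log2 change of -0.42 beside -0.04 over all genes tested. Of all genes, 31.3% were lower, and 3 carriers are too few to set against that share. At 20 µM 1 of the 3 fell and the others did not pass, and DESeq2, limma voom and unadjusted p gave 1 higher and 1 lower. SLC25A10, which exchanges malate or succinate for phosphate (chr17:81712236-81721016, + strand, ENSG00000183048.12), had 27.1, 29.1 and 33.1 CPM in untreated libraries, 24.8, 22.7 and 23.1 CPM at 20 µM and 12.7, 11.2 and 13.8 CPM at 30 µM. Every library of a higher dose lay below every library of a lower dose. SLC25A10 fell by 0.34 ± 0.08 on the log2 scale at 20 µM (adjusted p = 0.000643) and by 1.25 ± 0.08 at 30 µM, 2.37-fold lower than in untreated cells (adjusted p = 1.10e-14). Between the doses the fall was 0.91 ± 0.08, or 1.88-fold.

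SLC25A1, the citrate carrier that exports the carbon of fatty acid and sterol synthesis (chr22:19175575-19178830, - strand, ENSG00000100075.10), had 261, 290.4 and 278 CPM in untreated libraries, 292, 327 and 291 CPM at 20 µM and 232, 229.5 and 254 CPM at 30 µM. The libraries at 30 µM were the lowest and those at 20 µM the highest, with no overlap between any of the groups. Its fall at 30 µM against untreated cells was 0.21 ± 0.05 on the log2 scale (adjusted p = 0.00397), and at 20 µM the change was 0.14 ± 0.05 (adjusted p = 0.0699). The value at 20 µM passed the test when untreated library 2 or library 3 at 30 µM was left out (adjusted p = 0.0190 and 0.0182) and without the libraries that deviate together (0.0313). It also passed with DESeq2 (adjusted p = 0.0233), limma voom (0.0359), upper-quartile factors (0.0360), no filter on low counts (0.00291), a mean of at least 50 counts (0.0408), a fit of each pair of groups alone (0.0250), a fit of nuclear protein-coding genes (0.0228) and the replicate block (0.0195). SLC25A11, the oxoglutarate/malate carrier of the malate-aspartate shuttle, averaged 30.2 ± 0.595 CPM at 30 µM, against 40.5 ± 2.77 CPM untreated, a fall of 0.42 ± 0.06 (adjusted p = 1.16e-07). At 20 µM SLC25A11 was at 41.1 ± 1.09 CPM (log2 0.02). It overlaps RNF167 on the opposite strand, which changed by -0.12 at 30 µM (adjusted p = 0.0516).

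Of the amino acid carriers, 2 of 8 rose and 1 fell at 20 µM, and 3 of 8 fell at 30 µM against untreated cells while the other 5 did not pass. This was 37.5% called at each dose, against 34.2% of all genes at 20 µM and 60.8% at 30 µM. DESeq2 gave 2 higher and 0 lower at 20 µM and the same count at 30 µM. SLC25A29, a carrier of arginine, lysine and ornithine (chr14:100291111-100306547, - strand, ENSG00000197119.13), had 37.4, 40.8 and 39.6 CPM in untreated libraries, 45.7, 53.3 and 46.2 CPM at 20 µM and 21.99, 20.3 and 24.4 CPM at 30 µM. The libraries at 20 µM were all above the untreated ones and those at 30 µM all below, and SLC25A29 was alone among the 40 in passing the test in opposite directions at the 2 doses. It rose by 0.30 ± 0.06 at 20 µM (adjusted p = 0.000399) and fell by 0.82 ± 0.07 at 30 µM (adjusted p = 1.14e-11), and between the doses it fell by 1.12 ± 0.07, or 2.17-fold (adjusted p = 8.77e-15).

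SLC25A15, the ornithine carrier of the urea cycle, fell at both doses, to 37.5 ± 2.69 CPM at 20 µM and 32.5 ± 1.46 CPM at 30 µM, against 41.7 ± 1.64 CPM untreated, by 0.15 ± 0.06 and 0.36 ± 0.06 on the log2 scale (adjusted p = 0.0438 and 3.65e-06). The call at 20 µM did not hold without untreated library 2 or 3 or without library 1 or 2 at 20 µM (adjusted p = 0.0736, 0.185, 0.131 and 0.192). Between the doses its fall of 0.21 had an adjusted p of 0.00388, and of 0.0524 without library 3 at 20 µM. SLC25A18, the minor of the glutamate carriers here, had 3.62, 3.79 and 3.05 CPM in untreated libraries, 4.23, 3.01 and 3.102 CPM at 20 µM and 1.85, 1.61 and 2.27 CPM at 30 µM, so its 30 µM libraries were the lowest and the others overlapped. It averaged 1.91 ± 0.335 CPM at 30 µM, against 3.49 ± 0.384 CPM untreated, a fall of 0.86 ± 0.20 (adjusted p = 0.000330). Between the doses SLC25A18 fell by 0.85 ± 0.20 (adjusted p = 0.000441). Its partner SLC25A22, the main glutamate carrier, had 37.1, 43.99 and 38.99 CPM in untreated libraries, 34.9, 39.01 and 35.5 CPM at 20 µM and 40.7, 39.7 and 43.3 CPM at 30 µM, with the doses apart and both overlapping the untreated libraries. It averaged 41.2 ± 1.83 CPM at 30 µM, against 40.03 ± 3.55 CPM untreated (log2 0.05, adjusted p = 0.540), and with library size alone that change was -0.16. At 20 µM SLC25A22 stood at -0.13 (adjusted p = 0.101), and it passed without untreated library 1 (adjusted p = 0.0330) or library 2 at 20 µM (adjusted p = 0.0345). Between the doses SLC25A22 rose by 0.18 ± 0.06 (adjusted p = 0.0148), which did not hold without library 1 or 3 at 20 µM (adjusted p = 0.0808 and 0.0559), library 3 at 30 µM (0.0781) or the libraries that deviate together (0.146). The share of SLC25A18 in the pair, per exon base, was 7.88% ± 0.804 in untreated cells, 8.51% ± 1.88 at 20 µM and 4.33% ± 0.540 at 30 µM. Only the 30 µM libraries stood apart from the others in that share (exact permutation p = 0.1 against each group, and 0.7 between 20 µM and untreated).

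SLC25A38, the glycine carrier of heme synthesis, rose at 20 µM by 0.20 ± 0.06 (36.3 ± 1.66 CPM, against 31.5 ± 1.54 CPM untreated; adjusted p = 0.0121). Without untreated library 3 or library 2 at 20 µM its adjusted p was 0.0916 and 0.0750. At 30 µM SLC25A38 was at 33.7 ± 2.95 CPM (log2 0.10). The aspartate/glutamate carriers of the malate-aspartate shuttle, SLC25A12 and SLC25A13, passed neither comparison with untreated cells. SLC25A13, citrin, averaged 117 ± 0.835 CPM at 20 µM and 129 ± 3.02 CPM at 30 µM, against 123 ± 6.28 CPM untreated. Between the doses SLC25A13 rose by 0.14 ± 0.04 (adjusted p = 0.00337), which became -0.054 with library size alone. SLC25A12 had a log2 change of 0.25 ± 0.10 at 20 µM (adjusted p = 0.0525), and 0.36 without untreated library 3 (adjusted p = 0.0129). SLC25A12 also passed at 20 µM with median-ratio factors (adjusted p = 0.0497), upper-quartile factors (0.0389) and the replicate block (0.0481). The same held with a mean of at least 50 counts (0.0360) and nuclear protein-coding genes (0.0337), but not with DESeq2 or limma voom. It overlaps METAP1D on the opposite strand, which changed by -0.45 at 30 µM. SLC25A44, a carrier of branched-chain amino acids, had a log2 change of 0.09 at 30 µM (adjusted p = 0.167), and of 0.16 without untreated library 1 (adjusted p = 0.0273) or without the libraries that deviate together (adjusted p = 0.0498).

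Of 4 carriers of iron and glutathione, 0 passed the test at 20 µM in edgeR, and 0 also by unadjusted p, DESeq2 or limma voom. At 30 µM SLC25A28 rose and SLC25A40 fell. Of all genes, 34.2% were called in either direction at 20 µM and 60.8% at 30 µM, and 4 carriers are too few to set against these shares. SLC25A39, the main glutathione importer, had 192 ± 2.16 CPM in untreated cells, 188 ± 4.98 CPM at 20 µM and 187 ± 6.67 CPM at 30 µM. The log2 change of SLC25A39 at 30 µM against untreated cells was -0.04 (adjusted p = 0.380). It was -0.099 with upper-quartile factors (adjusted p = 0.0170) and -0.25 with library size alone (adjusted p = 1.95e-07). Its paralogue SLC25A40 averaged 15.5 ± 0.944 CPM at 30 µM, against 18.3 ± 0.849 CPM untreated, a fall of 0.24 ± 0.08 (adjusted p = 0.00748, and 0.0537 without library 2 at 30 µM). SLC25A40 overlaps DBF4 on the opposite strand, a gene that fell by 0.91 at 30 µM, and the part of these shared exons in the SLC25A40 value was not tested. SLC25A28, mitoferrin-2, averaged 22.4 ± 2.18 CPM at 30 µM, against 19.1 ± 1.49 CPM untreated, with overlapping libraries. Its rise of 0.23 ± 0.08 (adjusted p = 0.0116) became 0.17 without untreated library 1 (adjusted p = 0.0904), 0.15 without library 3 at 30 µM (adjusted p = 0.119) and 0.09 without the libraries that deviate together (adjusted p = 0.425). SLC25A37, mitoferrin-1, had 33.5 ± 3.07 CPM in untreated cells, 33.7 ± 2.76 CPM at 20 µM and 32.2 ± 0.930 CPM at 30 µM and passed no test.

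**Figure D3:**
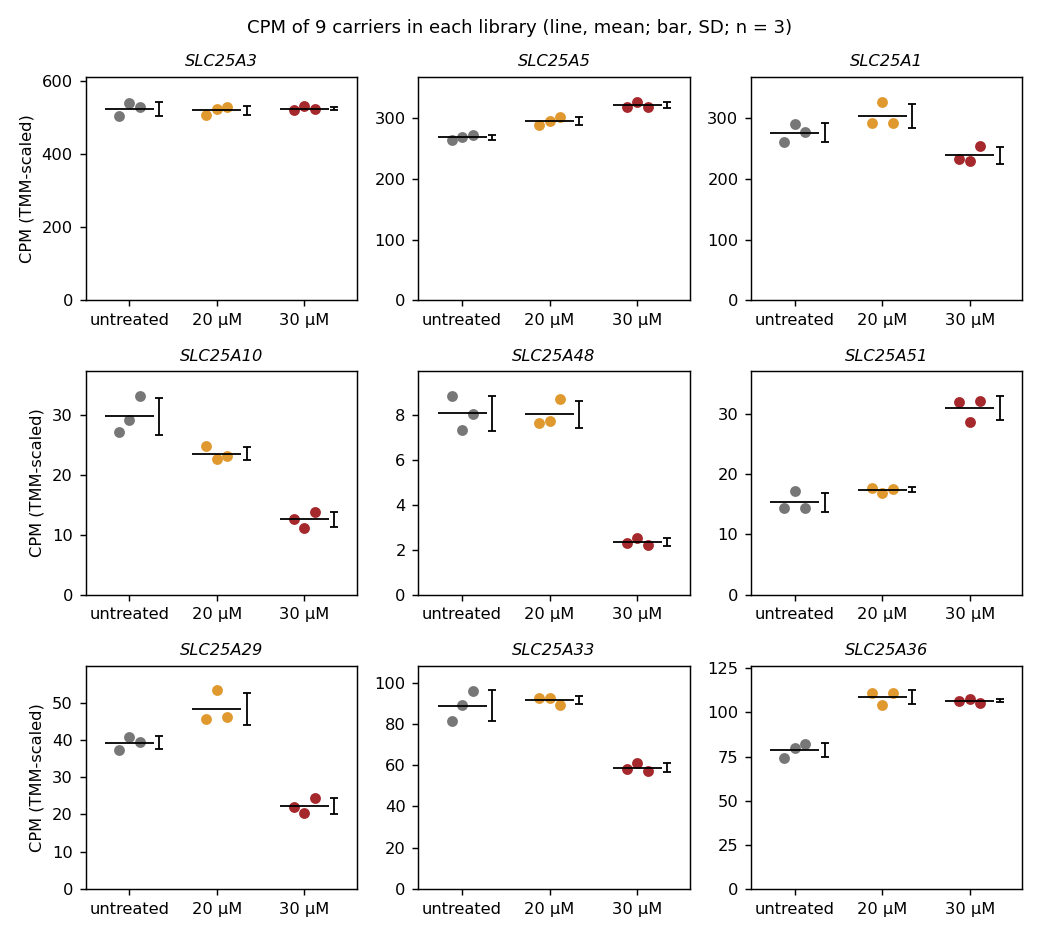
CPM of 9 carriers in each library (y axes start at 0), in untreated cells and at 20 µM and 30 µM eliglustat; horizontal lines are means and bars SD of 3 libraries. SLC25A10 steps down with each dose, SLC25A48 and SLC25A33 are low at 30 µM, SLC25A51 is high at 30 µM (28.7 to 32.2 CPM), SLC25A29 is high at 20 µM and low at 30 µM, and SLC25A3 stays between 504 and 540.3 CPM.

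Among carriers of nucleotides, cofactors and vitamins, 5 of 9 rose and 3 of 9 fell at 30 µM against untreated cells (background 60.8% called in either direction), and 2 rose and 2 fell at 20 µM (34.2%). SLC25A51, which brings NAD+ into the matrix (chr9:37879400-37904353, - strand, ENSG00000122696.14), had 14.4, 17.2 and 14.4 CPM in untreated libraries, 17.8, 16.96 and 17.5 CPM at 20 µM and 32.04, 28.7 and 32.2 CPM at 30 µM. The 3 libraries at 30 µM lay far above the other 6, which overlapped. SLC25A51 rose by 1.02 ± 0.08 at 30 µM, or 2.03-fold (adjusted p = 1.11e-13), and by 0.83 ± 0.08 against 20 µM. At 20 µM the change was 0.19 ± 0.08 (adjusted p = 0.0610, and 0.0124 without untreated library 2). That change also passed with upper-quartile factors (adjusted p = 0.0424), a mean of at least 50 counts (0.0390) and nuclear protein-coding genes (0.0410), but not with DESeq2 or limma voom. A non-coding gene on the same strand, AL138752.2, shares exons with it and averaged 1.36 ± 0.192 CPM at 30 µM, against 0.350 ± 0.220 CPM untreated.

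SLC25A42, which carries coenzyme A, fell at 30 µM to 20.96 ± 0.491 CPM, against 40.9 ± 1.38 CPM untreated, by 0.97 ± 0.06 on the log2 scale, or 1.95-fold (adjusted p = 1.12e-15), while at 20 µM it was at 43.2 ± 2.26 CPM (log2 0.08, adjusted p = 0.308). SLC25A16, linked to the same cofactor, rose with dose, to 29.2 ± 1.03 CPM at 20 µM and 36.9 ± 1.97 CPM at 30 µM, against 24.2 ± 1.53 CPM untreated (log2 0.27 and 0.61, adjusted p = 0.00106 and 3.87e-10). SLC25A17, which carries coenzyme A, FAD and NAD+ into peroxisomes, fell at 20 µM by 0.37 ± 0.09 (adjusted p = 0.00137) and stood at -0.19 ± 0.09 at 30 µM (adjusted p = 0.0704, and 0.0129 without library 1 at 30 µM). The value at 30 µM also passed with upper-quartile factors (adjusted p = 0.0164) and library size alone (0.000240). It passed with a mean of at least 50 counts (0.0463) and nuclear protein-coding genes (0.0303), but not with DESeq2 or limma voom.

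SLC25A26, the carrier of S-adenosylmethionine, averaged 23.3 ± 1.45 CPM at 30 µM, against 18.8 ± 2.13 CPM untreated, a rise of 0.31 ± 0.08 (adjusted p = 0.000751) that did not pass with library size alone (adjusted p = 0.250). LRIG1, which overlaps it on the opposite strand, fell by 0.48. SLC25A32, linked to folate and FAD transport, averaged 4.27 ± 0.498 CPM at 30 µM, against 3.02 ± 0.403 CPM untreated. Its rise of 0.50 ± 0.17 (adjusted p = 0.0119) had an adjusted p of 0.0610 without untreated library 1, of 0.0722 without library 3 at 30 µM and of 0.184 without the libraries that deviate together, where the change was 0.33. Between the doses SLC25A32 rose by 0.88 ± 0.18 (4.27 CPM at 30 µM, against 2.33 ± 0.198 CPM at 20 µM; adjusted p = 8.04e-05). DCAF13, which shares exons with it on the opposite strand, changed by -0.30 at 20 µM and 0.40 between the doses.

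SLC25A33 and SLC25A36 both carry pyrimidine nucleotides into mitochondria, where they serve the making of mitochondrial DNA and RNA, and were the paralogues of which, against untreated cells, a member rose while another fell. SLC25A33 (chr1:9539482-9585179, + strand, ENSG00000171612.7) had 81.1, 89.0 and 96.0 CPM in untreated libraries, 92.5, 92.4 and 89.3 CPM at 20 µM and 58.1, 61.0 and 57.3 CPM at 30 µM. Its libraries at 30 µM lay below all others, and those at 20 µM within the untreated range. SLC25A33 fell by 0.59 ± 0.05 at 30 µM, or 1.51-fold (adjusted p = 4.94e-12), and its change at 20 µM was 0.04 ± 0.05 (adjusted p = 0.553). SLC25A36 (chr3:140941830-140980961, + strand, ENSG00000114120.14) had 74.4, 79.7 and 81.9 CPM in untreated libraries, 111, 104 and 111 CPM at 20 µM and 107, 107 and 106 CPM at 30 µM. All 6 treated libraries lay above the untreated ones, and the doses overlapped. SLC25A36 rose by 0.47 ± 0.04 at 20 µM and 0.44 ± 0.04 at 30 µM (adjusted p = 1.08e-10 and 8.37e-11), with a difference between the doses of -0.03 ± 0.04 (adjusted p = 0.586). That difference depends on the scaling. It was -0.11 with upper-quartile factors (adjusted p = 0.0322) and -0.22 with library size alone (adjusted p = 3.65e-05). Per exon base, SLC25A33 held 75.1% ± 0.688 of the pair in untreated cells, 69.2% ± 1.02 at 20 µM and 59.6% ± 0.631 at 30 µM. The shares did not overlap between groups, and the exact permutation p was 0.1 for each pair of groups. With the length of the principal transcript the shares were 57.5%, 50.3% and 39.9%, so the order of the carriers at 30 µM depends on the length used and the direction with dose does not.

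The stretches upstream of the start of SLC25A33 and SLC25A36 are shown because both hold the same pair of motif letters although the genes changed differently, and they were chosen after the values were seen. The search covered 6 motifs on both strands in 300-base windows around gene starts, from RefSeq on GRCh38.p14, with 44 windows of 34 carriers matched by symbol. Capitals mark the E-box CACGTG, found in 7.26% of all 35116 windows and in windows of 8 carriers, and the cAMP response element TGACGTCA, found in 1.85% of all windows and in windows of 3 carriers. The bases shown hold no exon of GENCODE 29 and read 5′ to 3′ on the + strand, chr1:9539215-9539464 for SLC25A33 (250 bases, ending just before the start) and chr3:140941586-140941829 for SLC25A36 (244 bases).
SLC25A33: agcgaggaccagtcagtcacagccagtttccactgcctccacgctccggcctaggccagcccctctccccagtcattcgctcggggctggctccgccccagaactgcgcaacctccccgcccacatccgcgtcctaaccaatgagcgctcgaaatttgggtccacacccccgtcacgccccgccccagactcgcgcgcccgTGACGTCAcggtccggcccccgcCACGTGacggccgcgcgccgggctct
SLC25A36: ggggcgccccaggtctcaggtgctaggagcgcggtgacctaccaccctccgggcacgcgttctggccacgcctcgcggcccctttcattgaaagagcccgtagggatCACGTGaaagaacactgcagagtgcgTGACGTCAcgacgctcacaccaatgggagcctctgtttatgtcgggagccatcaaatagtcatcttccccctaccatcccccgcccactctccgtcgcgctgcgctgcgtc
In SLC25A33 the E-box begins 26 bases and the cAMP response element 49 bases before the start, and in SLC25A36 they begin 143 and 117 bases before it. The third carrier with the cAMP response element was SLC25A25, which rose at both doses. The other motifs searched were TGATGNAA of C/EBP-ATF factors (in windows of 1 carrier, 3.62% of all windows), TGACNNNGC of antioxidant response elements (9 carriers, 13.3%), GCGCATGCG of nuclear respiratory factor 1 (0 carriers, 1.92%) and CCGGAAGT of ETS factors (4 carriers, 4.14%). By their letters, 10 of the 15 pairs of motifs could share bases, and a pair did so in 1 carrier window, the E-box with TGACNNNGC. A match describes letters in a window and says nothing about binding.

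**Figure D4:**
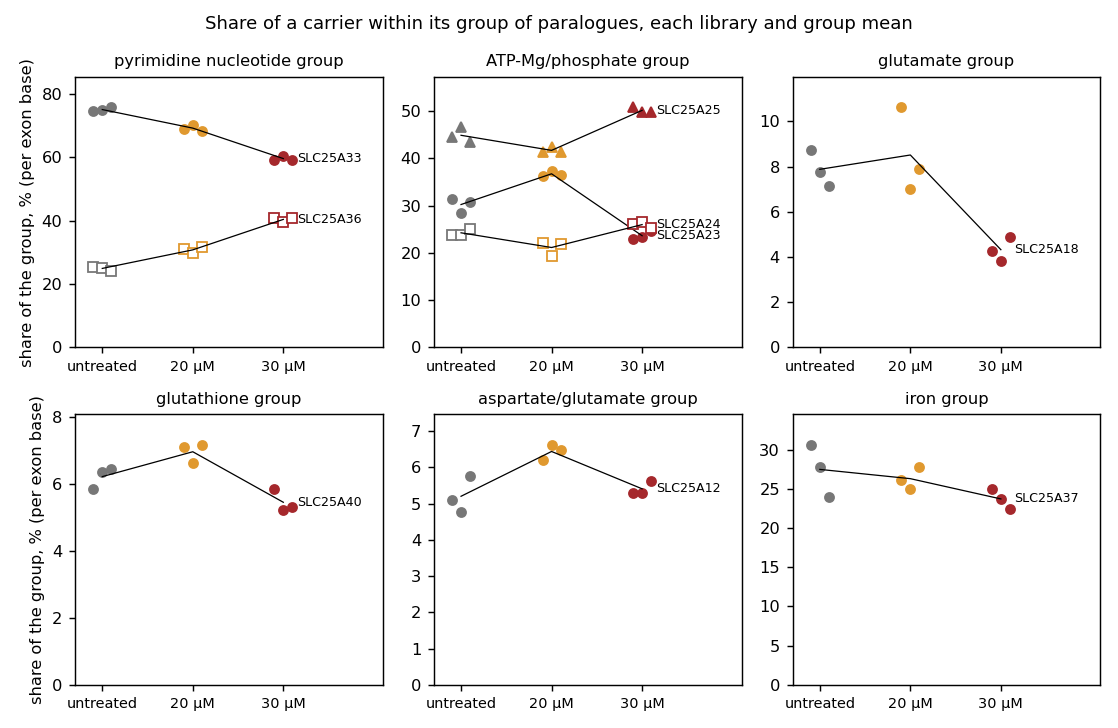
Share of a carrier within its group of paralogues (y axes, percent of the group's counts per exon base) in each of 3 libraries in untreated cells and at 20 µM and 30 µM, with lines through group means. SLC25A33 gives way to SLC25A36 with dose (75.1%, 69.2% and 59.6%), SLC25A23 peaks at 20 µM (36.7%), and SLC25A18 is lowest at 30 µM (4.33%).

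Among the relatives of uncoupling proteins, SLC25A30 fell at 30 µM by 0.15 ± 0.05 (54.3 ± 2.17 CPM, against 60.3 ± 2.92 CPM untreated; adjusted p = 0.00757), as did TPT1-AS1, which shares exons with it on the opposite strand (log2 -0.19). At 20 µM it was at 65.3 ± 0.738 CPM (log2 0.12, adjusted p = 0.0592, and 0.0361 without untreated library 3), and between the doses it fell by 0.27 ± 0.05. Its value at 20 µM also passed with upper-quartile factors (adjusted p = 0.0322), a mean of at least 50 counts (0.0360) and nuclear protein-coding genes (0.0404), but not with DESeq2 or limma voom. SLC25A14 passed no test and stayed at 6.997 to 7.21 CPM on average.

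The last class holds the outer membrane protein SLC25A46 and carriers whose substrate is unsettled or only lately described. At 20 µM 3 of 8 rose and the other 5 did not pass (background 17.2% higher), and at 30 µM 1 rose and 1 fell, 25% called against 60.8% of all genes. SLC25A48, for which choline transport has been reported (chr5:135579202-135889770, + strand, ENSG00000145832.16), had 8.82, 7.30 and 8.05 CPM in untreated libraries, 7.63, 7.73 and 8.69 CPM at 20 µM and 2.31, 2.52 and 2.19 CPM at 30 µM. Untreated and 20 µM libraries overlapped, and all 3 libraries at 30 µM lay far below them. At 30 µM SLC25A48 fell by 1.78 ± 0.14, or 3.45-fold (adjusted p = 3.99e-13), the widest change of any of the 40 carriers, and at 20 µM its change was -0.01 ± 0.12 (adjusted p = 0.961). CXCL14, on the opposite strand of the same locus, had 0 counts in all 9 libraries. SLC25A47, a carrier found mostly in liver, rose at both doses, to 6.57 ± 0.602 CPM at 20 µM and 5.70 ± 0.154 CPM at 30 µM, against 4.34 ± 0.518 CPM untreated. Its log2 changes were 0.59 ± 0.13 and 0.39 ± 0.14 (adjusted p = 0.000663 and 0.0149), and at 30 µM the adjusted p was 0.0858 without untreated library 2. SLC25A35 rose at 20 µM by 0.58 ± 0.17 (4.61 ± 0.545 CPM, against 3.07 ± 0.174 CPM untreated; adjusted p = 0.00676) and was at 2.66 ± 0.494 CPM at 30 µM (log2 -0.20, adjusted p = 0.340). SLC25A43 had the weakest call, a rise of 0.17 ± 0.07 at 20 µM (adjusted p = 0.0442) whose adjusted p was 0.0555 without untreated library 1, 0.167 without untreated library 2 and 0.0793 without untreated library 3. It was 0.0632, 0.0584 and 0.168 without libraries 1, 2 and 3 at 20 µM, and 0.0549 and 0.0579 without libraries 1 and 2 at 30 µM, and 0.141 without the libraries that deviate together. SLC25A34, SLC25A45, SLC25A46 and SLC25A53 passed no test with the fit used for the calls here. Between the doses SLC25A45 passed with library size alone (adjusted p = 0.0204), and SLC25A46 with several alternatives given below.

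By dose, 27 of the 40 carriers passed the test against untreated cells at 20 or 30 µM, 9 of them at both doses, 13 at 30 µM and not at 20 µM, and 5 at 20 µM and not at 30 µM. The same shares over all genes were 67.3% at either dose, 27.6% at both, 33.1% at 30 µM and not at 20 µM, and 6.55% at 20 µM and not at 30 µM. Passing at a dose and missing at the other does not show a difference, which the comparison of the doses tests. SLC25A10 and SLC25A15 fell in all 3 comparisons, and SLC25A5, SLC25A16 and SLC25A25 rose in all 3. SLC25A1, SLC25A11, SLC25A18, SLC25A30, SLC25A33, SLC25A40, SLC25A42 and SLC25A48 fell at 30 µM against both untreated cells and 20 µM, and SLC25A24, SLC25A26, SLC25A32 and SLC25A51 rose against both. SLC25A23 and SLC25A35 rose at 20 µM and fell between the doses. In other values near the threshold, SLC25A13 at 20 µM had an adjusted p of 0.181, and of 0.0395 without untreated library 1. Between the doses, SLC25A17 passed without library 2 at 20 µM (adjusted p = 0.0396, against 0.0903), SLC25A38 without library 3 at 30 µM (adjusted p = 0.0247, against 0.166) or without the libraries that deviate together (0.0186), and SLC25A46 without untreated library 3 (adjusted p = 0.0477, against 0.0530). SLC25A46 also passed there with upper-quartile factors (adjusted p = 0.00208), library size alone (7.38e-06) and limma voom (0.0456), but not with DESeq2. It passed as well with a mean of at least 50 counts (0.0206), nuclear protein-coding genes (0.0189) and each pair of groups alone (0.0463). SLC25A38 passed with upper-quartile factors (0.0149) and library size alone (0.000114). A set of 11 carriers passed none of the 3 tests, with a log2 change of at most 0.28 in size at 30 µM against untreated cells. In the other comparisons SLC25A34, with few counts, had the widest change of the 11, 0.47 at 20 µM and -0.46 between the doses. The same count over all genes was not made. With library size alone SLC25A3, SLC25A4, SLC25A37, SLC25A39 and SLC25A46 of this set were called lower at 30 µM against untreated cells.

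The summed level of the 40 carriers was 2245, 2357 and 2350.0 CPM in untreated libraries, 2379, 2463 and 2425 CPM at 20 µM and 2281, 2292 and 2321 CPM at 30 µM. The 20 µM libraries were the highest without overlap, and the others overlapped. The means differed by 105 CPM between 20 µM and untreated cells (exact permutation p = 0.1, the smallest possible), by -19.7 CPM between 30 µM and untreated cells (p = 0.7, exact permutation) and by -124 CPM between the doses (p = 0.1, exact permutation). With library size alone the sum was 2091 CPM at 30 µM, 2520.5 CPM at 20 µM and 2440 CPM in untreated cells, and the differences of 30 µM became -348 CPM from untreated cells and -429 CPM from 20 µM. In all, 51 exact tests of shares and sums were made, and 0.1 is also the smallest adjusted p they allow.

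Genes that work beside the carriers were counted on lists. Of 13 genes that import carriers from the cytosol, 8 fell and the other 5 did not pass at 20 µM, and 1 rose and 6 fell at 30 µM, with medians of -0.17 and -0.16, beside 0.01 and -0.04 over all genes. Of all genes, 16.9% were lower at 20 µM and 31.3% at 30 µM. TIMM10, a chaperone of the intermembrane space, fell by 0.42 at 20 µM and 0.73 at 30 µM, and TIMM22, the pore of the insertion complex, fell by 0.32 at 20 µM and stood at -0.07 at 30 µM. TOMM20, a receptor of the outer membrane, rose by 0.14 at 30 µM. Of 19 other mitochondrial transporters, 3 rose and 9 fell at 20 µM, and 3 rose and 10 fell at 30 µM, against 34.2% and 60.8% of all genes called in either direction at these doses. MPC1 and MPC2 together form the pyruvate carrier. MPC1 fell at both doses (log2 -0.44 and -0.55), while MPC2 rose at 20 µM and fell at 30 µM (log2 0.16 and -0.51).

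Of 11 enzymes of the shuttles that the carriers serve, 9 were tested. At 20 µM 3 rose and 3 fell, and at 30 µM 2 rose and 7 fell, with a median of -0.36 at 30 µM. Of all genes, 29.5% were higher and 31.3% lower at 30 µM, and 17.2% were higher and 16.9% lower at 20 µM. GOT1, the cytosolic aspartate aminotransferase of the malate-aspartate shuttle, averaged 221 CPM at 30 µM, against 88.4 CPM untreated (log2 1.32), whereas its mitochondrial partner GOT2 fell by 0.25 and the malate dehydrogenases MDH1 and MDH2 fell by 0.52 and 0.36. CS, citrate synthase, fell by 0.38, and ACLY, which splits exported citrate, rose by 0.14. Of 13 enzymes beside the ornithine, glycine, iron and glutathione carriers, 12 were tested, and 2 rose and 4 fell at 20 µM and 7 rose and 4 fell at 30 µM, beside the same shares of all genes. GCLC and GCLM, the subunits of the enzyme that starts glutathione synthesis, rose by 2.42 and 1.74 at 30 µM, beside -0.04 for the importer SLC25A39 on the TMM scale. CPS1, the entry enzyme of the urea cycle, fell by 0.64 at 30 µM, and ARG2, mitochondrial arginase, rose by 0.81. UCP2, an uncoupling protein of the same fold, rose by 0.28 at 20 µM and fell by 0.43 at 30 µM.

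**Figure D5:**
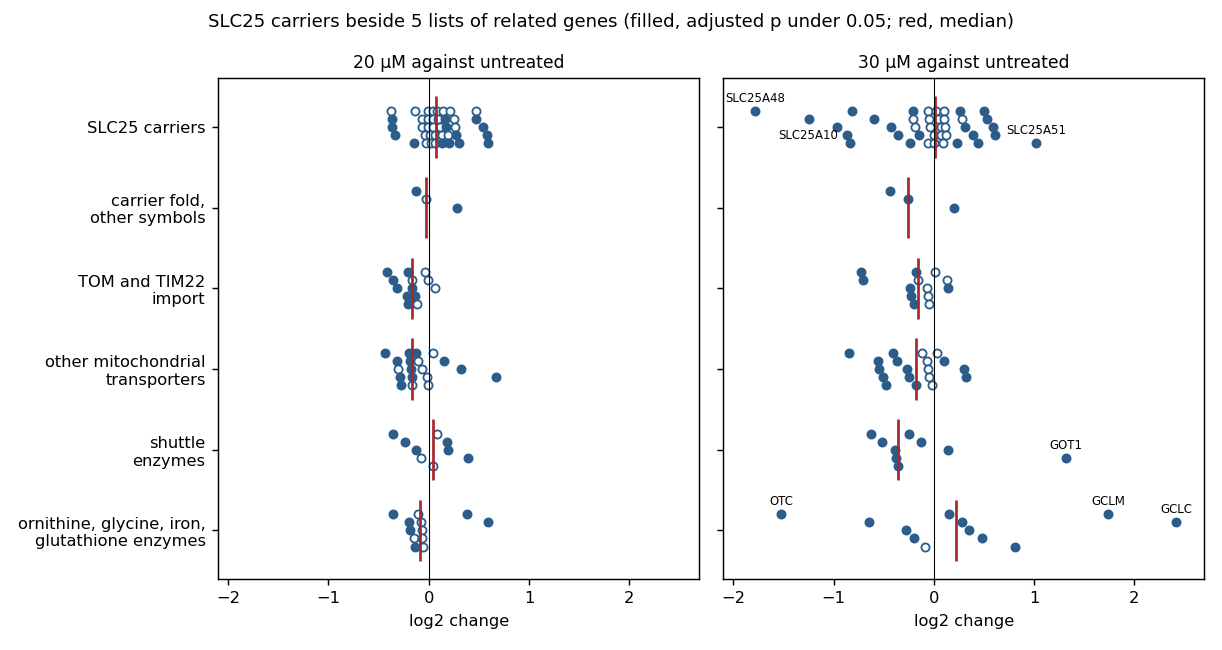
Log2 change (x axes) of each carrier and of each tested gene on 5 related lists at 20 µM (left) and 30 µM (right) against untreated cells; filled points had an adjusted p under 0.05 and red lines are medians. At 30 µM the carriers centre on 0.01 and the shuttle enzymes on -0.36, and GCLC at 2.42 lies farthest to the right.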

How the data were processed

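The deposited files hold counts of reads per gene, not normalized, 1 file per library, which the authors produced by alignment to hg38 (STAR 2.7.10a) and counting (HTSeq), per the submitters' processing notes. The sources used here do not give the annotation release or whether counting used strand, so 20 of the 40 carriers, whose exons overlap another gene (18 on the opposite strand, 6 on the same strand), are uncertain to that extent. The labels name both polyA RNA and a stranded kit with ribosomal depletion, and an extraction kit for fixed tissue.

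Symbols of the counted genes came from a reference list of gene names, and positions from GENCODE 29, both by Ensembl identifier. After filterByExpr and TMM scaling, all 9 libraries entered 1 edgeR 4.0.16 fit in R 4.3.3 (glmQLFit, robust, a mean per group), with a common biological coefficient of variation of 0.0529 and Benjamini-Hochberg adjustment at 0.05. The SE is the size of the log2 change over the square root of F. Shares of paralogues use counts per base of exon union, and the principal transcript length was added after seeing the data. DESeq2 1.42.0 and limma 3.58.1 (voom) were alternatives, beside other scalings, filters, a replicate block and each library left out. Summed levels and shares were tested by exact permutation (numpy 2.4.6). The fit was tested on simulated data. Of 9 same-numbered pairs of libraries, the correlation of deviations ran from -0.269 to 0.398. It was positive for pairs between the doses (0.201, 0.0878 and 0.398) and of either sign for pairs with untreated libraries. These values do not settle whether replicate numbers pair libraries, and pairing was not part of the fit used for the calls. Libraries of a group differed beyond sampling noise (chi-square per gene of 2.08 to 8.03), so each counted once.

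Members, substrate classes and lists were chosen with earlier results of these data known. Carriers named with every library's value were those past the test with a change of at least 1 log2 unit against untreated cells and no overlap, the 3 most abundant, those called in opposite directions, and paralogues of which a member rose and another fell in any comparison. Values of 1 of the 40 carriers are not reported here on their own, though the counts, medians and sums include it. Proteins, the genome sequence and the reads were not used here.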

Additional observations from a re-analysis of the deposited data

Results flagged for a closer look

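SLC25A29, the carrier of basic amino acids, drew attention because its effect differed between the doses in a direct test. Its change at 30 µM against 20 µM was -1.12 on the log2 scale (adjusted p = 8.77e-15, edgeR quasi-likelihood), and all 3 libraries at 20 µM (45.7 to 53.3 CPM) lay above the untreated ones (37.4 to 40.8 CPM) while all 3 at 30 µM (20.3 to 24.4 CPM) lay below them.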

How the results depend on the processing

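The counts of carriers past the test stayed within 1.5 times under every alternative run. Leaving out each library gave 11 to 15 at 20 µM against untreated cells (14 with all libraries), 20 to 23 at 30 µM against untreated cells (22) and 21 to 24 between the doses (23), and leaving out the 3 libraries that deviate together gave 13, 21 and 23. DESeq2 gave 13, 22 and 23. The replicate block gave 16, 22 and 23 carriers and ended no call, and whether the replicate numbers pair the libraries is not settled. Of the calls, 10 of 14, 16 of 22 and 17 of 23 held under all alternatives. With library size alone the direction turned for some carriers that passed the test on that scale or the TMM scale. At 30 µM against untreated cells these were SLC25A3 (-0.21), SLC25A4 (-0.19), SLC25A13 (-0.14) and SLC25A22 (-0.16). Between the doses they were SLC25A3 (-0.18), SLC25A5 (-0.072), SLC25A13 (-0.054), SLC25A22 (-0.015) and SLC25A44 (-0.14). Changes that passed on neither scale are not listed, though those smaller than the shift could turn as well. The summed carrier level with library size alone differed by -348 CPM at 30 µM from untreated cells and by -429 CPM from 20 µM. By construction that setting leaves out the TMM factors. With the principal transcript as length, an alternative chosen after seeing the data, differences in share, in percentage points, became -7.24 for SLC25A33 at 20 µM and -17.6 at 30 µM against untreated cells, -4.37 for SLC25A18 at 30 µM against untreated cells, 1.72 for SLC25A12 at 20 µM against untreated cells and -1.43 between the doses, and -0.912 for SLC25A40 between the doses, all in the direction found with exon union. Carriers with few counts are limited by depth: SLC25A34, the lowest, had an SE of 0.44 at 20 µM and 0.47 at 30 µM.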
